A study of Homo sapiens with 2 samples.

Results

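The Polycomb complex genes examined here were 10 of the 33538 genes counted in a pooled CRISPR screen with a single-cell readout, chosen by name as subunits of the 2 Polycomb repressive complexes. EZH2 and EZH1 are the alternative catalytic subunits of Polycomb repressive complex 2 (PRC2), and EED and SUZ12 are its core partners. MTF2 and PHF19 are Polycomb-like proteins that bring PRC2 to chromatin, and JARID2 is the accessory subunit of the other PRC2 form. RNF2 is a catalytic E3 ligase of Polycomb repressive complex 1 (PRC1), and PCGF5 and PCGF3 are paralogous RING finger partners of RNF2 in variant PRC1.

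PRC2 methylates histone H3 on lysine 27, and the trimethylated form, H3K27me3, marks silent developmental genes. PRC1 ubiquitinates histone H2A, and each complex can recognise the mark of the other. EZH2 is best known as the form of the enzyme in dividing cells, whereas EZH1 is also found in resting cells, and raised EZH2 is common in lung and other carcinomas.

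Cells of the human lung adenocarcinoma line A549 that carried Cas9 under a doxycycline-inducible promoter received a lentiviral pool of 120 gRNAs, at 0.3 infectious units per cell. Of these, 20 were non-targeting and 100 were aimed at 25 genes, with 4 gRNAs per gene, and after puromycin selection all cells had 2 days of doxycycline and 5 further days of growth. Transcripts were read at their 3′ ends in 1 library, the gRNAs were read in a second library from the same cDNA, and both are indexed by the same 5744 cell barcodes. All groups share the line, the Cas9 transgene, the selection and the induction, and differ only in the gRNA.

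A cell was placed in a pool where exactly 1 gRNA had more than 3 UMIs (unique molecular identifiers, 1 per captured molecule), which held for 3189 cells. The tested pools were 167 cells with an EZH2 gRNA, 190 with an MTF2 gRNA and 99 with a PCGF5 gRNA, and the controls were 696 cells with a non-targeting gRNA, called Non-Targeting cells. EZH2, MTF2 and PCGF5 are the members that were themselves targeted. The cells had a median of 34625 transcriptome UMIs (range 513 to 161719). The epithelial keratins KRT8 and KRT18 were found in 99.4% and 99.7% of barcodes, and EPCAM in 13.8%. Of the immune markers, PTPRC was found in 1 barcode and CD3E in 0, but CD14 in 20.6%, and of the fibroblast markers COL1A1 was found in 10.5% and LUM in 5.99%. At least 3 markers of fibroblasts were found in 1 cell, and as many of immune cells or endothelium in 0. All cells came from 1 culture pool, so there are no replicates, no p-values are given, and every interval below is a 95% interval that covers counting error only.

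The target sites are shown because they tell where in each gene Cas9 was directed. Of the 12 gRNAs against the 3 members, 11 had an exact match with an NGG motif in GRCh38, and all 11 sites lay in coding exons. Exons are numbered in the GENCODE transcript of each gene, which has 20 exons for EZH2, 15 for MTF2 and 10 for PCGF5. The letters below are the genomic site read 5′ to 3′ on the strand of the gRNA, with the NGG motif that Cas9 requires in capitals.
EZH2_gRNA1, chr7:148847270-148847289, minus strand, exon 2: actgggaagaaatctgagaaGGG
EZH2_gRNA2, chr7:148846527-148846546, minus strand, exon 3: accaagaatggaaacagcgaAGG
EZH2_gRNA4, chr7:148827230-148827249, plus strand, exon 7: tcagaaggaaatttccgaggTGG
MTF2_gRNA1, chr1:93110221-93110240, plus strand, exon 2: tctaaacagagactctacagGGG
MTF2_gRNA2, chr1:93110600-93110619, minus strand, exon 3: aatgtccttccagagaacccAGG
MTF2_gRNA3, chr1:93115523-93115542, plus strand, exon 6: gcagacattaccctatagtgTGG
MTF2_gRNA4, chr1:93118365-93118384, plus strand, exon 7: agtgctgcaaatgtaagcagTGG
PCGF5_gRNA1, chr10:91222864-91222883, plus strand, exon 2: agccacgaatggctacccaaAGG
PCGF5_gRNA2, chr10:91222946-91222965, plus strand, exon 2: gatcaagccaacaacagtgaCGG
PCGF5_gRNA3, chr10:91240514-91240533, plus strand, exon 3: aagatagcaatgattgcccaAGG
PCGF5_gRNA4, chr10:91264428-91264447, plus strand, exon 8: aagttggatgtgctgtgcaaTGG

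The EZH2 sites lay 1.20%, 8.30% and 28.7% of the way into the coding sequence for gRNA1, gRNA2 and gRNA4. EZH2_gRNA3 was not placed, because its spacer as read from the study's supplement had no exact match with an NGG motif in EZH2. Whether that text holds a copying fault was not checked, so the gRNA may still have a site there. The MTF2 sites lay between 0.731% and 37.6% of the way in. The first 3 PCGF5 sites lay between 1.17% and 20.7%, and that of PCGF5_gRNA4 at 76.4%, near the end, and PCGF5_gRNA4 had 2 exact sites with an NGG motif in the genome. 

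In Non-Targeting cells the 10 transcripts covered a wide range of levels, in UMIs per 1000000 UMIs of the pool (CPM), a measure that is not divided by gene length because 1 tag is counted per transcript. The Polycomb-like gene PHF19 was highest at 126 CPM (122 to 131), from 3174 UMIs. SUZ12 followed at 62.0 CPM (59.0 to 65.2) and PCGF5 at 28.0 CPM (26.0 to 30.1). EZH2 stood at 22.6 CPM (20.8 to 24.5), from 568 UMIs, and MTF2 at 17.1 CPM (15.5 to 18.7). The intervals of these 5 genes did not overlap those of their neighbours in the order.

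The other 5 members lay close together. EED had 13.9 CPM (12.5 to 15.4), and EZH1 had 11.5 CPM (10.2 to 12.9), with intervals that overlapped each other. RNF2 had 9.30 CPM (8.15 to 10.6), JARID2 8.83 CPM (7.70 to 10.1) and PCGF3 8.35 CPM (7.26 to 9.56), so the order of these 3 was within counting error. In each pair of paralogs 1 gene was higher, with intervals that did not overlap, EZH2 above EZH1, PHF19 above MTF2 and PCGF5 above PCGF3. A control cell held on average 4.56 UMIs of PHF19 and 0.816 UMIs of EZH2, and 0.302 UMIs of PCGF3, so for most members a single cell says little.

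**Figure D1:**
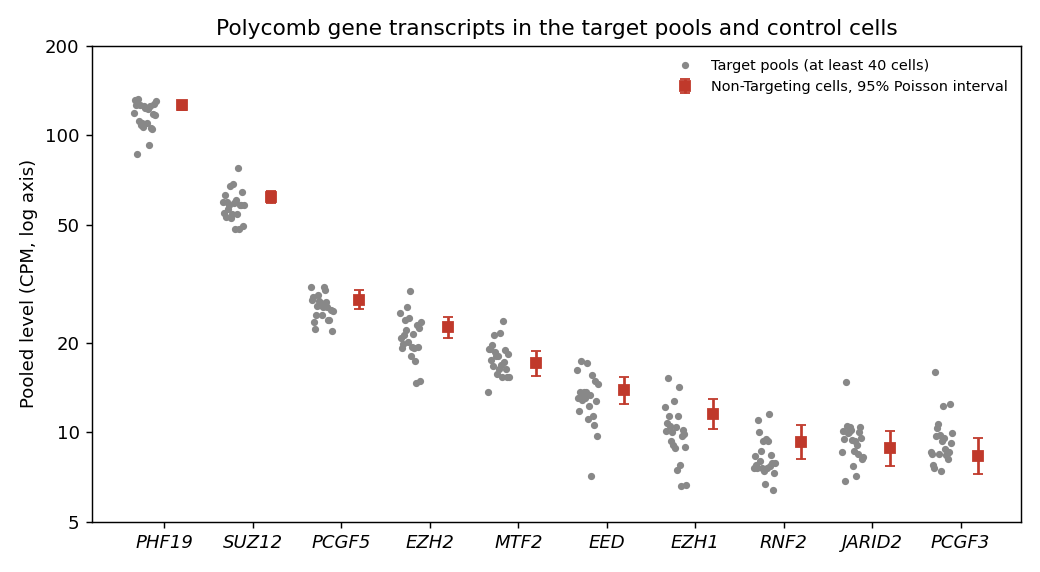
Pooled level of each Polycomb gene in CPM on a log axis, in the 22 target pools of at least 40 cells (grey points) and in Non-Targeting cells (red squares with 95% Poisson intervals). PHF19 is at 126 CPM and SUZ12 at 62.0 CPM in Non-Targeting cells, and the lowest member, PCGF3, is at 8.35 CPM.

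For each member the lowest and highest of the 22 target pools with at least 40 cells were read. Extremes picked from 22 pools lie apart through counting error too, so whether the members varied beyond it was not tested. EZH2 was lowest at 14.7 CPM (10.5 to 19.95) in the 79 cells with a SUV39H1 gRNA, had a median of 21.0 CPM over pools, and was highest at 29.8 CPM (24.3 to 36.3) in the 89 cells with a KAT2B gRNA. EZH1 was also lowest in the SUV39H1 pool, at 6.59 CPM (3.91 to 10.4), as was SUZ12, at 48.4 CPM (40.5 to 57.3). The SUV39H1 pool had 74.7 CPM of the proliferation marker MKI67, against 168 CPM in Non-Targeting cells. The share of cells with an MKI67 UMI was also read with every cell cut to the same depth. It was 36.1% of SUV39H1 gRNA cells (25.1% to 48.3%) and 44.2% of Non-Targeting cells (40.3% to 48.1%). These intervals overlapped, and the part of MKI67 in the low values of this pool was not tested. PHF19 was the member with the most pools below the controls, with an interval below 1 for the ratio to Non-Targeting cells in 9 of 22 pools and above 1 in 0. It also has the most UMIs of the members and so the narrowest intervals, and the share of all genes with such intervals was not counted over the 22 pools. MKI67 was below the Non-Targeting level in all 9 of these pools (74.7 to 164 CPM) and in 15 of the 22. Over the 22 pools, which come from 1 library, the Pearson correlation of PHF19 with MKI67 CPM was 0.64, given as a description.

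The other members had their extremes in other pools. MTF2 was highest, at 23.7 CPM (18.6 to 29.6), in the 86 cells with a SMARCD1 gRNA, and SUZ12 at 77.8 CPM (68.5 to 88.1) in the same cells. JARID2, at 14.8 CPM (10.5 to 20.2), PCGF3, at 15.9 CPM (11.5 to 21.5), EED, at 17.4 CPM (12.7 to 23.2), and PHF19, at 133 CPM (119 to 148), were all highest in the 82 cells with a DNMT1 gRNA. For JARID2 and PCGF3 the interval of the ratio to Non-Targeting cells lay above 1 in the DNMT1 pool, and for EED and PHF19 it did not. The share of all genes with such an interval was not counted in that pool, so these values are a description of the pool. RNF2 ranged from 6.39 CPM in the TRIM28 pool to 11.5 CPM in the SMARCD1 pool, and PCGF5 from 21.9 CPM in the TUBB1 pool to 30.8 CPM in the ATAD2 pool.

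The second question was how the members follow the cell cycle. MKI67 encodes Ki-67, a protein of dividing cells, and cells were split by their MKI67 UMIs after each cell was thinned to 10000 UMIs, which left out 427 shallower barcodes. The split gave 2248 cells with at least 1 MKI67 UMI and 3069 with 0. The split followed the cycle: the summed level of 7 genes of G2 and mitosis was 1668 CPM in MKI67-positive cells and 174 CPM in the MKI67-negative ones, and that of 8 S phase genes was 635 CPM in MKI67-positive cells and 307 CPM in MKI67-negative ones. Of the positive cells, 684 had exactly 1 MKI67 UMI and lay next to the cut.

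Of the members, PHF19 and EZH2 had the highest ratios. PHF19 had 179 CPM in MKI67-positive cells and 66.3 CPM in MKI67-negative cells, a log2 ratio of 1.42 (ratio 2.70, interval 2.56 to 2.85). EZH2 had 30.0 CPM in MKI67-positive cells and 11.9 CPM in MKI67-negative cells, a log2 ratio of 1.27 (ratio 2.53, interval 2.22 to 2.88). Both were higher in each further class. PHF19 had 66.3, 153 and 205 CPM, and EZH2 had 11.9, 24.3 and 35.6 CPM, in cells with 0, 1 to 2 and 3 or more MKI67 UMIs.

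Of the PRC2 core, EED had 15.8 CPM in MKI67-positive cells and 10.3 CPM in MKI67-negative cells (log2 ratio 0.57, ratio interval 1.31 to 1.79). SUZ12 had 70.5 CPM in MKI67-positive cells and 51.7 CPM in MKI67-negative cells (log2 ratio 0.44, ratio interval 1.27 to 1.46). PCGF5 was a little higher with MKI67 (log2 ratio 0.20, ratio interval 1.04 to 1.29), but its ratio had the opposite sign in Non-Targeting cells alone, at −0.16. The remaining 5 had intervals that held 1, with log2 ratios of 0.23 for RNF2, 0.05 for MTF2, 0.02 for JARID2, −0.09 for EZH1 and −0.13 for PCGF3.

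In the pairs of paralogs, EZH2 was 2.53 times as high in MKI67-positive cells as in MKI67-negative cells and EZH1 0.931 times (0.782 to 1.11), and the corresponding ratios were 2.70 for PHF19 and 1.03 for MTF2 (0.908 to 1.18). The intervals did not overlap within either of these pairs. PCGF5 and PCGF3 had intervals of 1.04 to 1.29 and 0.752 to 1.09, which overlapped.

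A log2 ratio of 0.5 or more was reached by 3 of the 10 members, PHF19, EZH2 and EED, against 7.25% of the 12076 genes measured in the same split. The interval lay above 1 for 5 members, against 29% of all genes, and below 1 for 0, against 20.4%. MKI67-positive cells had a median of 41545 UMIs before thinning and MKI67-negative cells 32962, and the values above are all read at 1 depth.

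**Figure D2:**
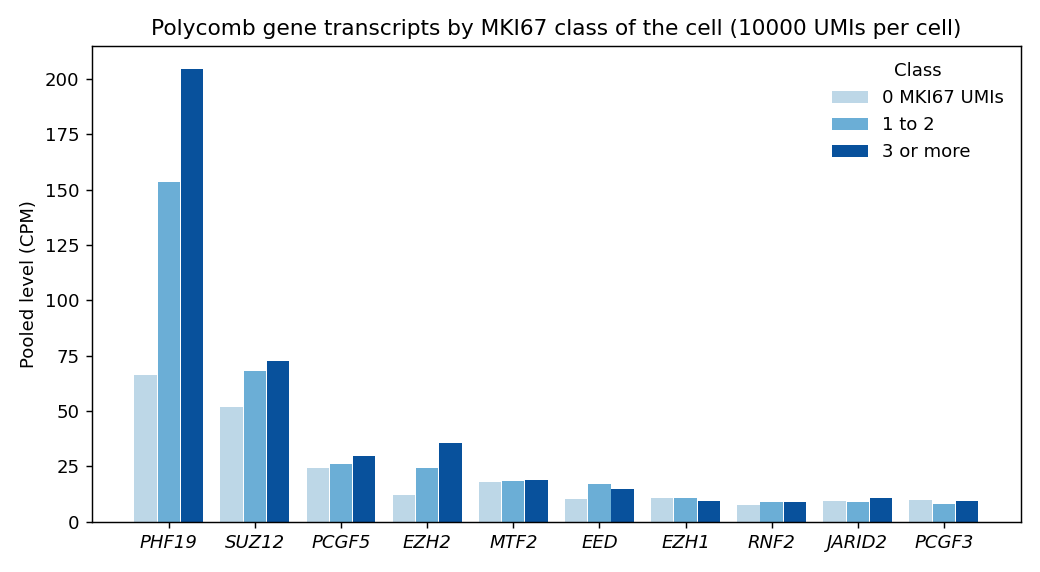
Pooled level in CPM of each Polycomb gene in 3069 cells with 0, 1116 cells with 1 to 2 and 1132 cells with 3 or more MKI67 UMIs, with every cell thinned to 10000 UMIs. PHF19 (66.3, 153 and 205 CPM) and EZH2 (11.9, 24.3 and 35.6 CPM) are higher in each further class, whereas EZH1 is between 9.36 and 10.8 CPM.

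Cell by cell, the Pearson correlation with MKI67 on log(1 + thinned UMIs) was 0.44 for PHF19, 0.21 for EZH2 and 0.11 for SUZ12, over 5317 cells of the same library and depth. The others were between −0.02 and 0.06, too weak in such sparse counts to be read. PHF19 followed the G2 and mitosis genes (r = 0.53) more than the S phase genes (r = 0.32), whereas EZH2 was near equal (0.20 and 0.22). Among 4497 genes found in at least 20% of cells, the 5 closest to EZH2 were MKI67 itself (0.21), the histone gene HIST1H4C (0.20), the mitotic kinase gene CDK1 (0.20), CLSPN (0.19), which encodes a checkpoint mediator of replication, and HMGB2 (0.18). Between members, the highest correlation was 0.11, for PHF19 with EZH2.

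Promoter sequences were examined for the letters TTTNNCGC on both strands. With any letter allowed at N, this is a loose form of a core that E2F factors of the cell cycle can bind. Of 35116 RefSeq promoters of 300 bases in GRCh38.p14, 6.89% held it. Of the 16 promoters listed for the members, 5 held it, 1 each of EZH2, EZH1, SUZ12, MTF2 and PHF19. The match did not separate the members by MKI67, since EZH1 and MTF2 held it too. The promoters of the 2 genes with the largest MKI67 ratios follow, with the matches in capitals. That of EZH2 has 1 match just after the start, and that of PHF19 has a pair of them upstream, both read on the other strand.
EZH2 promoter, chr7:148884242-148884541, minus strand: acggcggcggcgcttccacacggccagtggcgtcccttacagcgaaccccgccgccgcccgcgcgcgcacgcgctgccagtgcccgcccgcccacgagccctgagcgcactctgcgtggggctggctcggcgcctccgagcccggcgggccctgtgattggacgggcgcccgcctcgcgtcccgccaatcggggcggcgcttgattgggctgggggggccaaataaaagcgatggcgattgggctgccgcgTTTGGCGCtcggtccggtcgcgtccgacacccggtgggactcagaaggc
PHF19 promoter, chr9:120877139-120877438, minus strand: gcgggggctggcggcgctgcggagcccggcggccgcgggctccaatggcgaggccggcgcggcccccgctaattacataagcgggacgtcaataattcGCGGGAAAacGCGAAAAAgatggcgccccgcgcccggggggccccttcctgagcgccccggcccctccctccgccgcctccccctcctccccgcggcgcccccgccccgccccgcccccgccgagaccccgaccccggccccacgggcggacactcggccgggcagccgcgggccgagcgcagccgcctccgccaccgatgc

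A shorter element of cell cycle promoters, TTTGAA, was in 15.2% of all promoters and in 2 of the 16 member promoters, of SUZ12 and PCGF5. The CCAAT box, bound by NF-Y, was in 34.6% of all promoters and in 8 of the 16 member promoters, which belong to 6 members. The EZH2 promoter printed here has 4 of these boxes on the 2 strands together. A match is a description of the letters and not a site of binding.

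In the wider set of 54 other Polycomb genes in the file, 53 were measured in the MKI67 split. One of them, TFDP1, a dimer partner of E2F factors and part of a variant PRC1, passed 0.5, against 7.25% of all genes, with 44.4 CPM in MKI67-positive cells and 25.2 CPM in MKI67-negative cells (log2 ratio 0.79). The interval lay above 1 for 20 of these genes, against 29% of all genes, and below 1 for 6, against 20.4%. The furthest below was KDM6B, which encodes an H3K27 demethylase, with 6.41 CPM in MKI67-positive cells and 12.6 CPM in MKI67-negative cells (log2 ratio −0.87). Both of these genes were picked with their values in view. The median log2 ratio was 0.11 over the 53 genes, 0.21 over the 10 members and 0.02 over all genes.

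The next comparison asked whether each targeted member lost its transcript with its own gRNAs. For none of the 3 was a loss detectable at this depth. EZH2 had 154 UMIs, 23.8 CPM, in EZH2 gRNA cells and 22.6 CPM in Non-Targeting cells, 105% of the control level (87.7% to 126%). MTF2 had 110 UMIs, 16.3 CPM, in MTF2 gRNA cells and 17.1 CPM in Non-Targeting cells, 95.7% (76.9% to 118%). PCGF5 had 122 UMIs, 30.8 CPM, in PCGF5 gRNA cells and 28.0 CPM in Non-Targeting cells, 110% (89.98% to 133%). Transcripts that carry small insertions or deletions are counted with the others, and protein was not measured.

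The gRNAs of a target gave different values, on few cells each. EZH2 transcript was at 111% of control with EZH2_gRNA1 (108 cells, 89.3% to 137%), 60.3% with EZH2_gRNA2 (12 cells, 25.9% to 120%), 214% with EZH2_gRNA3 (11 cells, 126% to 341%) and 77.9% with EZH2_gRNA4 (36 cells, 49.5% to 117%). The value of EZH2_gRNA3 rests on 18 UMIs, and the same 11 cells had 49.4% of the control level of MKI67. After thinning to 10000 UMIs, 0 of the 10 cells kept had an EZH2 UMI, which allows a share of up to 30%, against 16.9% of Non-Targeting cells, so the higher level was not detected at equal depth. As a measure of spread, the 15 non-targeting gRNAs found in 10 or more cells were each set against the remaining Non-Targeting cells, and for EZH2 they ranged over 52.5% to 165%, below the value of EZH2_gRNA3.

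MTF2 transcript was at 126% with MTF2_gRNA1 (19 cells), 60.5% with MTF2_gRNA2 (6 cells, 2 UMIs), 88.1% with MTF2_gRNA3 (102 cells) and 99.5% with MTF2_gRNA4 (63 cells). PCGF5 transcript was at 83.5%, 134%, 81.5% and 116% with PCGF5_gRNA1 to PCGF5_gRNA4 (12, 25, 23 and 39 cells). All these intervals held 100%, and the non-targeting gRNAs ranged over 35.8% to 129% for MTF2 and 79.1% to 160% for PCGF5. The share of cells without a UMI of the target, at 10000 UMIs a cell, was 82.1% of EZH2 gRNA cells and 83.1% of Non-Targeting cells for EZH2 (exact binomial intervals 75.3% to 87.7% and 80.0% to 85.9%). It was 83.6% of MTF2 gRNA cells and 83.1% of Non-Targeting cells for MTF2. For PCGF5 it was 65.6% of PCGF5 gRNA cells and 75.2% of Non-Targeting cells, with intervals of 55.0% to 75.1% and 71.7% to 78.5%.

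Partners and paralogs were then read in the same 3 pools. The paralog of each target stayed within counting error of the controls. EZH1 had 10.5 CPM in EZH2 gRNA cells and 11.5 CPM in Non-Targeting cells, 91.2% (69.0% to 119%). PHF19 had 124 CPM in MTF2 gRNA cells and 126 CPM in Non-Targeting cells, 98.3% (91.0% to 106%). PCGF3 had 9.59 CPM in PCGF5 gRNA cells and 8.35 CPM in Non-Targeting cells, 115% (79.0% to 163%).

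Single gRNAs went in opposite directions beneath these pooled values. EZH1 was at 67.0% of control with EZH2_gRNA1 (45.0% to 96.7%, 32 UMIs) and at 172% with EZH2_gRNA4 (111% to 255%, 27 UMIs). The non-targeting gRNAs ranged over 53.1% to 136% for EZH1, so the value of EZH2_gRNA4 lay outside that range and that of EZH2_gRNA1 inside it. Without EZH2_gRNA1 the log2 ratio of EZH1 was 0.40, and without EZH2_gRNA4 it was −0.47.

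PHF19 split in the same way with the MTF2 gRNAs. It had 106 CPM with MTF2_gRNA3 and 170 CPM with MTF2_gRNA4, against 126 CPM in Non-Targeting cells, which is 83.8% (75.1% to 93.4%) and 134% (120% to 150%). MTF2_gRNA1 gave 94.0 CPM of PHF19, 74.5% of control (58.8% to 93.1%). In CPM, MKI67 went the same way in these cells, at 63.2% of control with MTF2_gRNA3, 130% with MTF2_gRNA4 and 45.2% with MTF2_gRNA1. At equal depth, 44.2% of Non-Targeting cells had an MKI67 UMI. The share was 35.1% with MTF2_gRNA3, 57.6% with MTF2_gRNA4 and 57.9% with MTF2_gRNA1. For PHF19 it was 59.4% of Non-Targeting cells, and 57.4%, 71.2% and 68.4% with the same gRNAs. With MTF2_gRNA1, on 19 cells, both shares were thus above the control while both CPM levels were below it. Of the 11 gRNAs against EZH2, MTF2 or PCGF5 with at least 10 cells, PHF19 and MKI67 lay on the same side of 100% with 7 and on opposite sides with 4, among them PCGF5_gRNA1 (78.2% of PHF19, 159% of MKI67) and EZH2_gRNA3 (111%, 49.4%). With the 15 non-targeting gRNAs they lay on the same side with 6 and on opposite sides with 9. The part of MKI67 in the PHF19 values of single gRNAs was not tested, and the 15 non-targeting gRNAs alone ranged over 64.1% to 138% for PHF19 and 68.9% to 123% for MKI67.

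**Figure D3:**
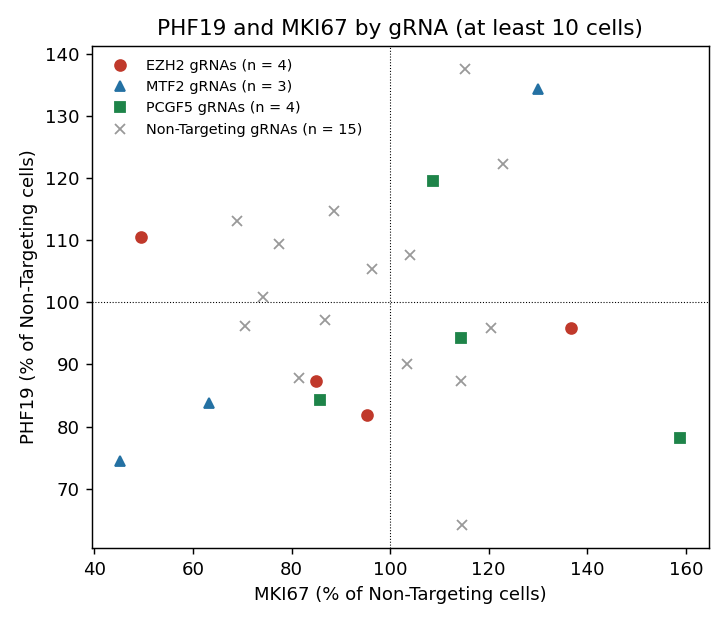
PHF19 against MKI67, both as percent of Non-Targeting cells, for each gRNA with at least 10 cells against EZH2, MTF2 or PCGF5, and for 15 non-targeting gRNAs set against the other Non-Targeting cells. MTF2_gRNA4 (134% PHF19, 130% MKI67) lies at the upper right, and MTF2_gRNA3 (83.8%, 63.2%) and MTF2_gRNA1 (74.5%, 45.2%) lie at the lower left, whereas PCGF5_gRNA1 (78.2%, 159%) lies at the lower right.

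In EZH2 gRNA cells, 1 of the 10 members had an interval below 1, against 5.06% of the 11553 genes measured, and 0 had one above 1, against 4.93%. It was PHF19, with 111 CPM in EZH2 gRNA cells and 126 CPM in Non-Targeting cells, 88.3% (81.4% to 95.8%). MKI67 was 151 CPM in EZH2 gRNA cells and 168 CPM in Non-Targeting cells. Within MKI67-positive cells the log2 ratio of PHF19 was −0.10 and within MKI67-negative cells −0.13, and both intervals held 0. Against cells with a gRNA for another target in place of Non-Targeting cells it was −0.08, and that interval held 0 as well. The other PRC2 partners were at 92.5% (EED), 91.0% (SUZ12), 97.9% (MTF2) and 119% (JARID2), and the PRC1 members at 88.9% (PCGF5), 117% (PCGF3) and 108% (RNF2).

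In MTF2 gRNA cells, 2 members had an interval below 1, against 6.43% of 11553 genes, and 0 had one above 1, against 4.13%. EZH2 had 18.1 CPM in MTF2 gRNA cells and 22.6 CPM in Non-Targeting cells, 80.1% (65.4% to 97.6%). It was at 69.1% with MTF2_gRNA3 (51.4% to 91.2%) and 99.5% with MTF2_gRNA4 (72.7% to 133%), and without MTF2_gRNA3 the log2 ratio of the pool was −0.11 in place of −0.30. RNF2 had 6.67 CPM in MTF2 gRNA cells and 9.30 CPM in Non-Targeting cells, 71.8% (51.0% to 99.1%).

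Both were also read within each class of cell. The log2 ratio of EZH2 was −0.14 (−0.49 to 0.19) among MKI67-positive cells and −0.63 (−1.30 to −0.13) among MKI67-negative cells. That of RNF2, which had 45 UMIs in the pool, was 0.03 (−0.58 to 0.60) among MKI67-positive cells and −1.08 (−2.28 to −0.42) among MKI67-negative cells. The intervals of the 2 classes overlapped for both genes, and the difference between classes was not tested. MKI67 was 138 CPM in MTF2 gRNA cells and 168 CPM in Non-Targeting cells. The share of cells with an MKI67 UMI at equal depth was not lower, at 45.8% of MTF2 gRNA cells and 44.2% of Non-Targeting cells. Of the other PRC2 members, EED was at 80.2% (61.6% to 103%), SUZ12 at 95.7%, EZH1 at 90.1% and JARID2 at 87.4% of control. Of the members, 9 of 10 had a log2 ratio below 0 in MTF2 gRNA cells, against 55% of all genes, and their median was −0.15, against −0.02 over all genes. Whether such a fall is particular to MTF2 gRNAs was not tested. Of the 22 target pools of at least 40 cells, the interval of EZH2 lay below 1 in 3, and that of RNF2 in 1, the MTF2 pool. The Non-Targeting level was above the median over target pools of at least 40 cells for EZH2 (22.6 and 21.0 CPM), RNF2 (9.30 and 7.88 CPM), EZH1, EED, SUZ12, PHF19 and PCGF5. It was below that median for MTF2, JARID2 and PCGF3.

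In PCGF5 gRNA cells, 0 of the 10 members had an interval below 1, against 3.95% of 11555 genes, and 0 had one above 1, against 4.76%. RNF2, the catalytic partner of PCGF5, had 7.57 CPM in PCGF5 gRNA cells and 9.30 CPM in Non-Targeting cells, 81.3% (53.7% to 119%). The PRC2 members lay between 94.96% (EZH2) and 106% (JARID2) of control. MKI67 was 186 CPM in PCGF5 gRNA cells and 168 CPM in Non-Targeting cells.

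Log2 ratios below 0 were found for 6 members in EZH2 gRNA cells, against 51.2% of all genes, and for 7 in PCGF5 gRNA cells, against 48.8%. No member reached a log2 ratio of 0.5 in either direction in any of the 3 pools. Over all genes, 0.943% were higher and 1.66% lower by that much in EZH2 gRNA cells, 0.857% and 1.71% in MTF2 gRNA cells, and 2.07% and 2.66% in PCGF5 gRNA cells. With the further demand of an interval on the same side of 1, these shares were 0.822% and 0.978%, 0.77% and 1.08%, and 1.43% and 1.12%, and 0 members met it. By single gRNA with at least 10 cells, 13 of 110 member values had an interval away from 100% (11.8%), against 12 of 150 values (8%) for the non-targeting gRNAs. PHF19, the member with the most counts, gave 6 of these 13, from 11 gRNAs, and 4 of the 12, from 15 non-targeting gRNAs. The 3 pools share their Non-Targeting cells.

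**Figure D4:**
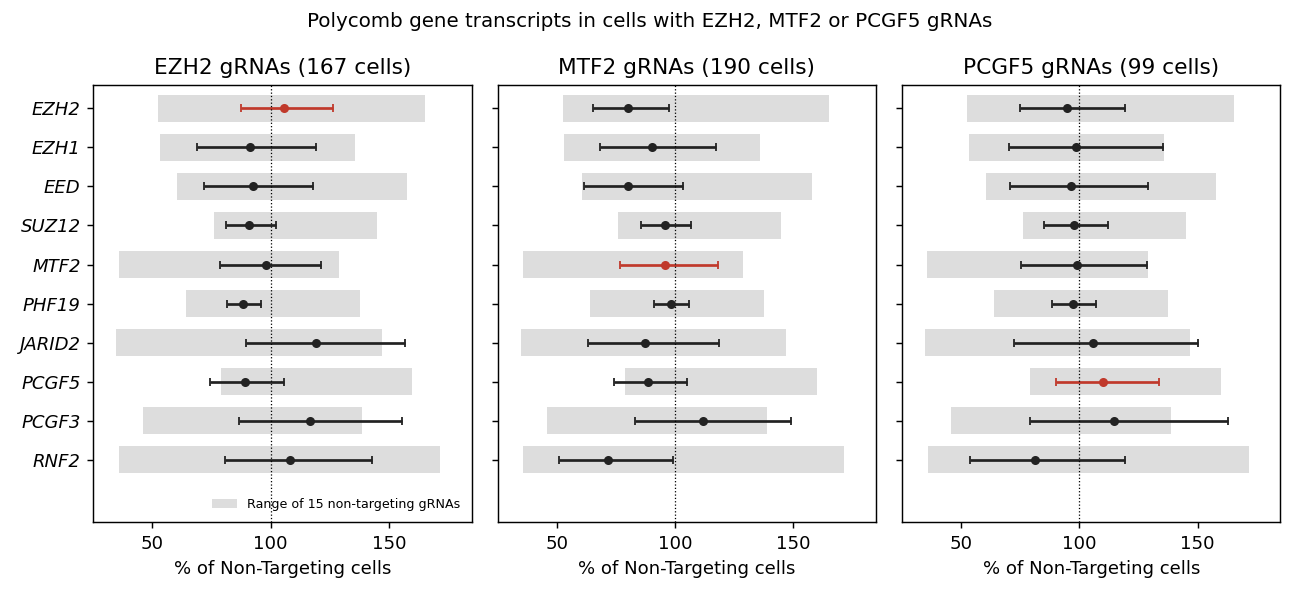
Level of each Polycomb gene as percent of Non-Targeting cells, with 95% counting intervals, in cells with EZH2, MTF2 or PCGF5 gRNAs, with the targeted gene in red. The grey bars give the range of 15 non-targeting gRNAs, each against the other Non-Targeting cells, and every pooled value lies within them. Those gRNAs had 13 to 134 cells each and the pools 99 to 190, so small groups with more counting error widen the bars.

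Genes that work with the members were read next, as a list of 54 other subunits and regulators, of which 52 had at least 50 UMIs in either pool. Their median log2 ratio was 0.00 in EZH2 gRNA cells, −0.07 in MTF2 gRNA cells and −0.02 in PCGF5 gRNA cells, beside −0.00, −0.02 and 0.01 over all genes. Intervals lay above 1 for 2, 0 and 1 of the 52 and below 1 for 3, 1 and 1, against 4.93%, 4.13% and 4.76% of all genes above and 5.06%, 6.43% and 3.95% below. The gene KDM6A, which encodes an H3K27 demethylase, was the 1 gene of the list past 0.5 in size with an interval away from 1. It had 14 UMIs, 3.53 CPM, in PCGF5 gRNA cells and 155 UMIs, 6.16 CPM, in Non-Targeting cells (log2 ratio −0.66, ratio interval 0.306 to 0.991). By gRNA it had 2, 3, 3 and 6 UMIs. When gRNAs were called by a mixture model or with more than 10 UMIs, the interval of KDM6A held 1.

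Genes that carry H3K27me3 are the known targets of these complexes, so 68 developmental and growth genes often marked in epithelial or cancer cells were listed. The list was chosen from general knowledge and not from marks measured in A549. Earlier results of these data were known when it was chosen, so its counts are descriptions only. At least 50 UMIs in either pool were found for 23 of the 68. Of these, 16 were higher in EZH2 gRNA cells, 12 in MTF2 gRNA cells and 17 in PCGF5 gRNA cells than in Non-Targeting cells. The other 7, 11 and 6 were lower, against 51.2%, 55% and 48.8% of all genes, so the MTF2 count was near the background. The medians of their log2 ratios were 0.14, 0.06 and 0.20, beside −0.00, −0.02 and 0.01 over all genes.

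In PCGF5 gRNA cells, 5 of the 23 were higher by 0.5 or more, against 2.07% of all genes, and 0 were lower by as much, against 2.66%. The shares over all genes, in this pool and the others, are not matched for level. Genes with few UMIs pass 0.5 more often through counting error, so these shares are not a like comparison. The interval lay above 1 for 7 of the 23, against 4.76% of all genes, and below 1 for 0, against 3.95%. CDKN1C, which encodes a cyclin-dependent kinase inhibitor, had 30 UMIs, 7.57 CPM, in PCGF5 gRNA cells and 93 UMIs, 3.70 CPM, in Non-Targeting cells (log2 ratio 0.87, ratio interval 1.31 to 3.12). Its level was 13.0, 4.57, 7.60 and 8.31 CPM with PCGF5_gRNA1 to PCGF5_gRNA4, above the Non-Targeting level with each of them. These values rest on 5, 5, 7 and 13 UMIs. The range over single non-targeting gRNAs was not read for the genes of this list. Its log2 ratio was 0.22 among MKI67-positive cells and 1.15 among MKI67-negative cells.

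PAX6, a transcription factor gene of eye and brain development, had 21 UMIs, 5.30 CPM, in PCGF5 gRNA cells and 70 UMIs, 2.78 CPM, in Non-Targeting cells (log2 ratio 0.74, ratio interval 1.11 to 3.14). With PCGF5_gRNA1 it had 0 UMIs. MSX2 (17 UMIs in PCGF5 gRNA cells, log2 ratio 0.66) and IRX3 (19 UMIs, 0.51) were also past 0.5, with intervals that held 1. The best counted gene of the list with an interval above 1, IGFBP7, which encodes a secreted growth factor binding protein and was picked after its values were seen, had 416 CPM in PCGF5 gRNA cells and 301 CPM in Non-Targeting cells (log2 ratio 0.46, ratio interval 1.31 to 1.46).

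In EZH2 gRNA cells, 1 of the 23 was higher by 0.5 or more, against 0.943% of all genes. It was GATA2, a zinc finger transcription factor gene, with 27 UMIs, 4.17 CPM, in EZH2 gRNA cells and 52 UMIs, 2.07 CPM, in Non-Targeting cells (log2 ratio 0.75, ratio interval 1.22 to 3.27). EZH2_gRNA1 contributed 20 of the 27 UMIs, and without it the log2 ratio was 0.39 with an interval that held 0. Intervals lay above 1 for 3 of the 23, against 4.93% of all genes, and below 1 for 2, against 5.06%, in EZH2 gRNA cells. In MTF2 gRNA cells, 0 of the 23 reached 0.5 in either direction, and intervals lay above 1 for 3, against 4.13%, and below 1 for 0, against 6.43%. Those 3 were CDKN1C (log2 ratio 0.499, ratio interval 1.02 to 2.25), MSX1 (0.467, 1.03 to 2.04) and IGFBP7 (0.202, 1.10 to 1.21). A higher level of CDKN1C and IGFBP7 was thus not particular to PCGF5 gRNA cells. In EZH2 gRNA cells their log2 ratios were −0.044 and 0.018.

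**Figure D5:**
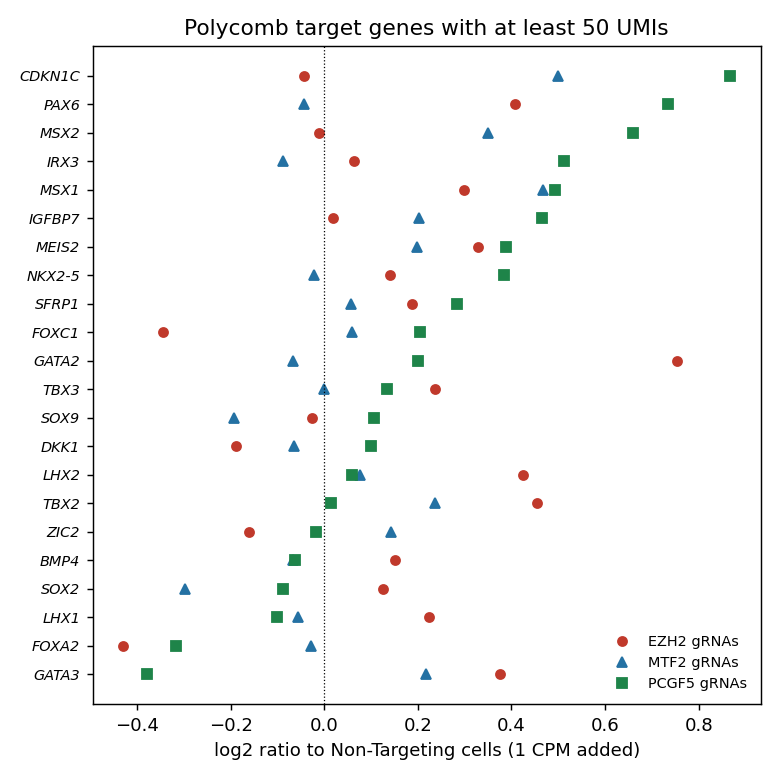
Log2 ratio to Non-Targeting cells, with 1 CPM added, of the listed Polycomb target genes with at least 50 UMIs, all but 1 of which are drawn, in cells with EZH2, MTF2 or PCGF5 gRNAs. CDKN1C (0.87) and PAX6 (0.74) are furthest to the right in PCGF5 gRNA cells and GATA2 (0.75) in EZH2 gRNA cells, and most points lie within 0.5 of 0.

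The gRNA counts do not tell an intact gRNA from one that mutated in cloning or in the cell, nor an edited target from an unedited one, and the part of either in these values was not tested.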

How the data were processed

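Single-cell libraries of the pooled A549 cells were made with a 3′ kit, and a gRNA library was amplified from the same cDNA. The deposited values are raw UMI counts per gene or gRNA and barcode, which the authors made with Cell Ranger 3.1.0 against GRCh38. The annotation version is not given in the sources used here. R 4.2.0 and Seurat 4.1.0 are named in the submitters' processing notes. Per the labels Cas9 was induced with doxycycline. The features and barcodes that the authors deposited beside the counts gave gene names and cell identities, with no further score.

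All barcodes were kept, and no doublet caller was run, but cells with 2 or more gRNAs (286) entered no pool. The UMIs of a pool were added up and expressed as CPM, and pools were set against each other as log2 ratios after 1 CPM was added, which understates changes of low genes. CPM intervals are exact Poisson intervals, ratio intervals come from the exact conditional binomial distribution, and shares have Clopper-Pearson intervals, all at 95%. Counts of genes cover those reaching 50 UMIs in either pool. For the MKI67 split each cell was thinned to 10000 UMIs without replacement. Python 3.11.15, numpy 2.4.6, scipy 1.17.1, pandas 2.3.3, scikit-learn 1.9.0 and matplotlib 3.10.9 were used, and the counting code was tested on simulated data.

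List genes are named where they were past 0.5 in size with an interval away from 1, at most 4 per direction and pool, and 1 such gene is counted but not reported here. The members and lists were chosen with earlier results of these data known. Of the listed genes, 1 (EZHIP) was not matched by name. Sites were placed by an exact match of the study's spacers to GRCh38 with an NGG motif. The IDs of the deposited gRNAs carry coordinates of another build, which are not printed and which differed from the GRCh38 matches by 1 constant per gene. Promoters are from RefSeq, GRCh38.p14. Alternatives were a 2-component mixture for gRNA calls, more than 10 UMIs, at least 10000 UMIs a cell, 10 CPM added, means of LogNormalize values (scale factor 10000), other reference cells, each MKI67 class, each gRNA left out, no UMI minimum, 20000 thinned UMIs and TOP2A in place of MKI67.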

Additional observations from a re-analysis of the deposited data

How the results depend on the processing

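No paired analysis was possible because the 2 libraries are of the same cells and there are no replicates. The 3 targets in their own pools stayed within counting error of the controls under each alternative run, with leave-one-gRNA-out log2 ratios of −0.07 to 0.17 for EZH2, −0.12 to 0.05 for MTF2 and 0.01 to 0.24 for PCGF5. The log2 ratio of EZH2 in the MKI67 split was 0.97 with TOP2A as the marker, 1.10 in Non-Targeting cells alone and 0.87 with 10 CPM added. The log2 ratio of PHF19 was 1.54 at 20000 UMIs, 1.61 for 3 or more MKI67 UMIs, 1.56 with TOP2A and 1.31 with 10 CPM added. The log2 ratio of PCGF5 turned to −0.16 in Non-Targeting cells alone, and that of RNF2 in MTF2 gRNA cells turned to 0.028 among MKI67-positive cells. The cause was not tested. Over all barcodes SUZ12 was 58.8 CPM and RNF2 8.09 CPM.

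The list counts were small and moved with the setting. Target genes higher by 0.5 in EZH2 gRNA cells numbered 0 with more than 10 gRNA UMIs, 0 with 10 CPM added and 2 with no UMI minimum, and 1 to 4 with each gRNA left out; those lower numbered 3 with no minimum and 0 to 1 with each gRNA left out. In MTF2 gRNA cells higher target genes numbered 1 with the mixture model, 2 with more than 10 UMIs, 2 with no minimum and 0 to 2 with each gRNA left out, and lower ones 0 to 1. In PCGF5 gRNA cells higher target genes numbered 0 with 10 CPM added, 9 with no minimum and 4 to 5 with each gRNA left out, and lower ones 1 with no minimum and 0 to 2 with each gRNA left out. Other Polycomb genes higher in EZH2 gRNA cells numbered 1 with the mixture model, 1 with more than 10 UMIs and 1 to 2 with each gRNA left out, and lower ones 0 to 1. Lower ones numbered 0 to 1 in MTF2 gRNA cells. In PCGF5 gRNA cells lower ones numbered 0 with 10 CPM added and 1 to 3 with each gRNA left out, and higher ones 0 to 1. Adding 10 CPM shrinks the ratios of genes of few CPM, and without a minimum more genes are counted.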
